A study of Mus musculus with 32 samples.

Results

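Chemokines and their receptors were followed in mouse gastrocnemius (GAS) muscle over 28 d post denervation. The genes were found by a rule on names, set with earlier results of these data known. It took protein-coding genes whose symbols are Ccl, Cxcl, Ccr or Cxcr with a number, by the GENCODE mouse annotation. Cx3cl1, Cx3cr1, Xcl1, Xcr1 and Ackr1 to Ackr4 were taken as well. The rule found 57 of the 33397 genes in the expression table, of which 35 are ligands and 22 are receptors. Ccl21b and Cxcl15, which also fit the rule, were not analysed here, and Cxcl11 was outside it because the annotation calls it a polymorphic pseudogene. RNA from GAS muscles had been sequenced for 8 time points, namely 0, 1, 3, 5, 7, 14, 21 and 28 d, by 4 samples apiece, or 32 in all. The labels give the strain C57BL/6, the GAS muscle and sciatic nerve transection for every group, 0 d included. The study describes young adult male C57BL/6J mice, a piece of the nerve cut out of the hind leg, and sham mice whose nerve was left whole, so the 0 d group was taken as the control. No genotype beyond the strain is given. Each sample was whole muscle, with fibres, vessels, nerve branches, connective tissue and immune cells together.

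Chemokines are small proteins that guide migrating cells. Most are secreted, bind to the sugars of the matrix and vessel wall, and act through G protein-coupled receptors on leukocytes, while Cx3cl1 and Cxcl16 are made as membrane-anchored proteins. The names follow the spacing of the first cysteines (CC, CXC, CX3C, XC), and the main ligand and receptor sets are known by the cell they recruit: Ccl2, Ccl7, Ccl8 and Ccl12 bring in monocytes, most of them through Ccr2, and Cxcl1, Cxcl2, Cxcl3 and Cxcl5 bring in neutrophils through Cxcr2. The atypical receptors, Ackr1 to Ackr4, bind chemokines and take them up or carry them without the usual G protein signal. In muscle, these molecules are best known from injury and regeneration, where neutrophils and monocytes arrive early and macrophages stay on.

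Levels are FPKM, fragments scaled to gene length and sequencing depth by the authors, and they are given as mean ± SD with n = 4 unless single samples are listed. Samples are numbered by their columns in the table, and the numbers carry no order. Of the 57 members, 48 reached 0.1 FPKM in at least 4 samples and were tested, among them 30 ligands and 18 receptors. Differences are log2 differences of FPKM + 0.1 with their standard errors, from 1 limma fit over 22071 genes and all 8 groups. A gene was called higher or lower where the Benjamini-Hochberg adjusted p was under 0.05 and the difference was at least 1.5-fold. All comparisons with 0 d share the same 4 control samples. Since this is bulk tissue, fewer cells of a type and less RNA per cell cannot be told apart.

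Recovered depth was 14199902 to 17561584 fragments a sample. Calls of the genes described that ended when 1 sample was left out are given beside most of them. A pair of samples stood apart most from the rest of their groups. At 1 d, sample 4 was the highest of its group for 35 of the 47 tested members that were ranked there, and at 3 d, sample 1 was the lowest for 37 of 47. Among the 7 d samples, sample 3 was the lowest for 33 of 47, and among those of 14 d, sample 1 was the lowest for 31 of 48. Leaving out that 7 d sample moved the 7 d count of called members from 23 to 26. Leaving out that 14 d sample moved the 14 d count from 23 to 28. The share of all genes under either setting is not given, so these moves cannot be read as particular to the family. Mitochondrial transcripts took 14.5 to 18.2% of fragments at 0 d and 6.7 to 17.1% later, and the median of the 11943 genes with a mean of at least 1 FPKM lay 0.15 to 0.40 above 0 d on the log2 scale at every later time. Counts are therefore also given after median-ratio scaling, which brings that median to between -0.0294 and 0.0346. An extract protocol in the labels speaks of retinas, but the summed retina markers were at 0.0350 to 0.266 FPKM and the summed myofibre markers at 21780 to 43090 FPKM.

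Many members rose early and stayed high. At 1 d, 19 of 48 members were called higher (39.6%), against 11.3% of all genes tested, and 1 was called lower, against 5.11%. At 3, 5, 7, 14, 21 and 28 d the counts of higher members were 15, 19, 21, 22, 23 and 25, where all genes stood at 20.4%, 25.3%, 26.4%, 26.4%, 21.1% and 26.7%. The share of the family was thus between 31.2% and 52.1% throughout, and it was above the share of all genes at each time, least so at 3 d. Between 1 and 5 members were called lower, at 3 d with 5 of 48 (10.4%) against 10.6% of all genes. The share of falls was near that of all genes at 3, 5, 21 and 28 d, and under it at 1, 7 and 14 d. At 5 d to 28 d the counts of lower members were 3, 2, 1, 3 and 3, beside 6.12%, 6.52%, 5.94%, 6.37% and 6.32% of all genes.

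After median-ratio scaling, the higher and lower counts were 18 and 2 at 1 d, 14 and 6 at 3 d, 14 and 8 at 5 d, 17 and 6 at 7 d, 17 and 4 at 14 d, 20 and 4 at 21 d, and 22 and 5 at 28 d. All genes were then called higher at 7.41%, 14.5%, 12.1%, 13.2%, 12.5%, 12.1% and 13.2% and lower at 9.01%, 15.8%, 12.5%, 13%, 11.7%, 11.4% and 12.4%. The family's share of higher members was above that of all genes under both scalings. Without the 2 samples that stood apart, the higher counts were 17, 21, 20, 24, 27, 26 and 27 in the same order of times, beside 9.98%, 24%, 26%, 27%, 27.3%, 22% and 27.4% of all genes. The lower counts were then 0, 4, 3, 2, 1, 3 and 3, beside 5.9%, 9.51%, 6.23%, 6.64%, 6.03%, 6.47% and 6.36%. The median difference over the 48 members was 0.96 at 1 d, 0.43 at 3 d and 1.17 at 28 d. All 4 samples lay above all 4 of 0 d in 15, 10, 18, 22, 20, 20 and 23 members over the times, beside 19.9%, 23%, 35.9%, 32.4%, 36.8%, 32.9% and 36.6% of all genes. They lay below in 2, 4, 3, 2, 3, 3 and 2 members, beside 8.6%, 12.3%, 8.93%, 8.47%, 8.13%, 9.99% and 9.06%. By this measure the family was near the background at 3 d and 5 d. Of the 162 calls of members against 0 d, 38 were lost on leaving out at least 1 of the 32 samples, and 38 of the 174 comparisons without a call gained one. The first time at which a member was called is therefore uncertain for many. With all samples, 35 members (of 48) were called higher at 1 or more times, beside 44.1% of all genes. Those called lower at 1 or more times were 8, beside 15.1%. Cxcl1 and Cxcl9 were both, and 7 were called in neither direction.

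**Figure D1:**
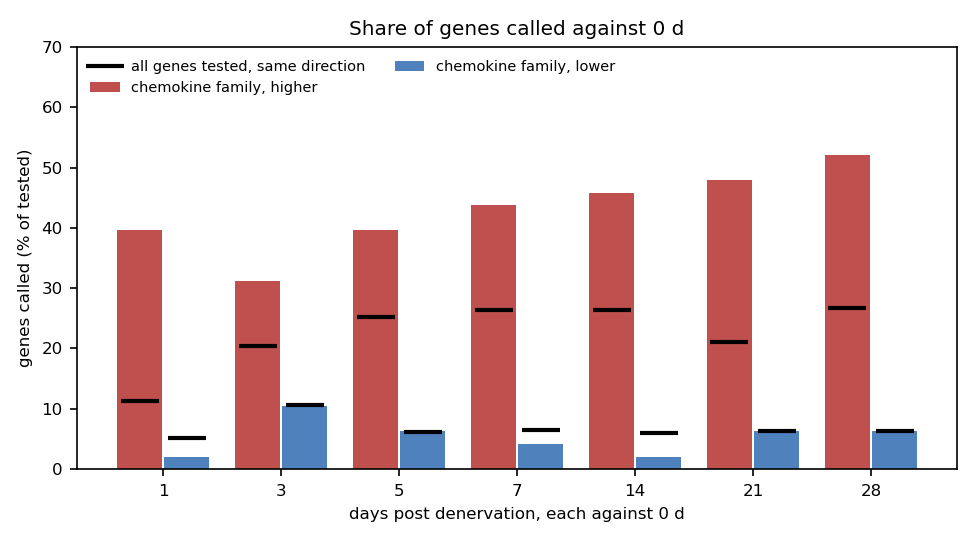
Percent of the 48 tested chemokine family members called higher (red) or lower (blue) than 0 d at each time post denervation; black ticks mark the same percent over all 22071 genes tested. The red bars stand above their ticks at each time, by the least at 3 d, and the blue bars stay at 10.4% or under.

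Among those higher than 0 d at all 7 later times were the ligands Ccl6, Ccl7, Ccl8, Ccl9, Ccl12, Ccl21a and Cxcl13 and the receptors Ccr1 and Ccr2, of which Ccl21a and Ccr2 lost calls when single samples were left out. Highest means fell most often at 1 d and 28 d. Among the 48 members, 13 had their highest group mean at 1 d and 15 had it at 28 d. The others peaked at 0, 3, 5, 7, 14 and 21 d in 4, 6, 1, 2, 5 and 2 cases. Some 1 d means leaned on sample 4. Ccl12 was at 18.7 FPKM there, 3.99 to 6.16 FPKM in the other 1 d samples and 5.63 to 8.76 FPKM at 28 d. The share of all genes with their highest mean at each time is not given here. Levels were low for most: 32 of the 57 had a mean under 1 FPKM over all samples, and 7 had a mean of at least 10 FPKM.

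**Figure D2:**
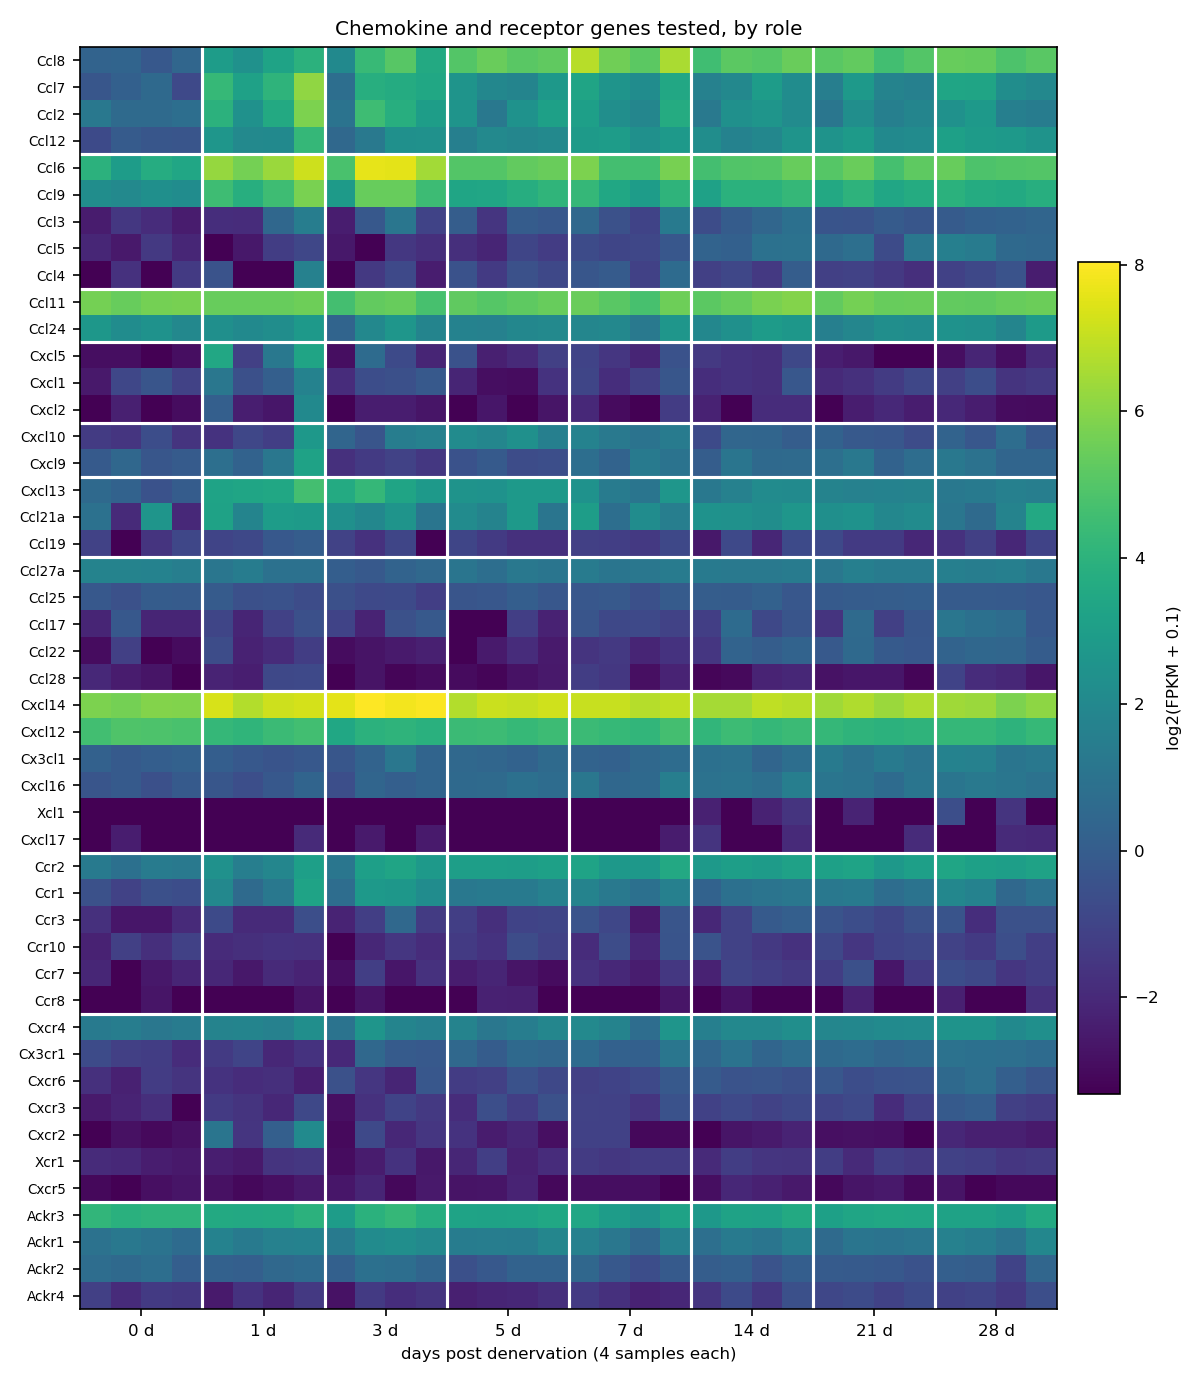
Level of 47 of the tested members (rows, grouped by role) in each of the 32 samples (columns, grouped by day), as log2(FPKM + 0.1). Yellow is high, dark violet is low, and white lines part the roles and the days. Cxcl5, Cxcl13 and Cxcr2 are brightest in the 1 d columns, and Ccl5, Ccl22 and Cx3cr1 brighten towards 28 d.

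The set that recruits monocytes was called higher from 1 d. All 4 of its members were called at 1, 3, 5 and 7 d, beside 11.3%, 20.4%, 25.3% and 26.4% of all genes, although the 5 d call of Ccl2 was lost under some alternatives. Of the 4, all but Ccl2 were called at 14, 21 and 28 d too with all samples, beside 26.4%, 21.1% and 26.7%. Ccl2, Ccl7, Ccl12 and Ccl8 lie close together on chromosome 11 (GRCm38; Ccl2 starts at 82035571 and Ccl8 ends at 82116799), all on the plus strand.

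Ccl8 reached the highest level of the 4. It stood at 1.14, 1.18, 0.769 and 1.23 FPKM at 0 d and at 7.72, 5.34, 9.59 and 15.9 FPKM at 1 d. At 7 d it reached 112, 48.2, 36.1 and 95.7 FPKM, and at 28 d it was still at 42.1, 40.4, 29 and 35.4 FPKM. Every later sample was above every 0 d sample. The difference was 2.95 ± 0.41 at 1 d (adjusted p = 1.7e-06), 5.82 at 7 d (adjusted p = 1.67e-12) and 4.97 at 28 d (adjusted p = 5.01e-11). Ccl8 also rose from 3 d to 5 d, by 1.44 (adjusted p = 0.0101), a call lost without 3 d sample 1, at 0.88 (adjusted p = 0.0794).

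Ccl2, the best known monocyte attractant, had another course. It was at 2.22, 1.41, 1.44 and 1.61 FPKM at 0 d, and at 15.5, 5.31, 11.7 and 54.7 FPKM at 1 d. By 28 d it was at 5.23, 6.96, 2.87 and 2.66 FPKM. The 1 d samples all lay above those of 0 d and spread over a wide range, with sample 4 the highest. The difference was 3.13 ± 0.60 at 1 d (adjusted p = 0.000142), 2.29 at 3 d, where sample 1 at 1.89 FPKM lay within the 0 d range, and 1.94 at 7 d (adjusted p = 0.00875). At 5 d it was 1.55 (adjusted p = 0.0356), a call that median-ratio scaling ended, as did leaving out any of 6 single samples (1.29, adjusted p = 0.115, without 5 d sample 4). From 14 d on, Ccl2 was not called with all samples, at 1.30, 0.92 and 1.26 (adjusted p = 0.0766, 0.236 and 0.0849). It was called at 14 d without 1 d sample 4 (adjusted p = 0.0477), 3 d sample 1 (adjusted p = 0.0369) or 14 d sample 1 (1.58, adjusted p = 0.0465). Without 3 d sample 1 it was also called at 28 d (adjusted p = 0.0423).

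Ccl7, which binds Ccr2 as well as Ccr1 and Ccr3, went from 0.729, 1, 1.39 and 0.472 FPKM at 0 d to 19.7, 9.09, 16.8 and 70.8 FPKM at 1 d, and was at 10.2, 9.88, 4.61 and 3.85 FPKM at 28 d. The groups did not overlap at 1 d or at 28 d. Its difference was 4.52 ± 0.56 at 1 d (adjusted p = 2.14e-07) and 2.81 at 28 d (adjusted p = 0.000117). Ccl12, a mouse monocyte attractant close in sequence to Ccl2, rose from 0.483 to 0.873 FPKM at 0 d to 3.99 to 18.7 FPKM at 1 d and 5.63 to 8.76 FPKM at 28 d. Its differences at those times were nearly equal, 3.10 ± 0.37 (adjusted p = 1.04e-07) and 3.19 (adjusted p = 2.68e-08), with 1.34 to 5.3 FPKM in between at 3 d. Without 1 d sample 4, the 1 d differences were 2.52 for Ccl2, 3.95 for Ccl7, 2.61 for Ccl12 and 2.68 for Ccl8, and all 4 stayed called.

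The make-up of the set turned from Ccl2 and Ccl7 towards Ccl8. The summed FPKM of the 4 genes had means of 4.35, 68.8, 42.4, 51.1, 94.9 and 55.4 at 0, 1, 3, 5, 7 and 28 d. Ccl8 gave 17.8 to 30.7% of that sum in the 0 d samples, 9.92 to 22.7% in the 1 d samples, 66.9 to 81.3% in the 5 d samples and 62.6 to 74.5% in the 28 d samples. Between 28 d and 1 d, a comparison chosen after the values were seen, Ccl8 was higher by 2.02 (adjusted p = 0.00022), whereas Ccl2 fell by 1.87 (adjusted p = 0.0136) and Ccl7 fell by 1.71 (adjusted p = 0.0149). Without 1 d sample 4, Ccl8 was still higher, by 2.29 (adjusted p = 9.2e-05), and the differences of Ccl2, -1.25 (adjusted p = 0.0905), and Ccl7, -1.14 (adjusted p = 0.0980), were not called. In that comparison, 12 of 48 members were called higher and 9 lower, beside 19.4% and 7.03% of all genes.

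**Figure D3:**
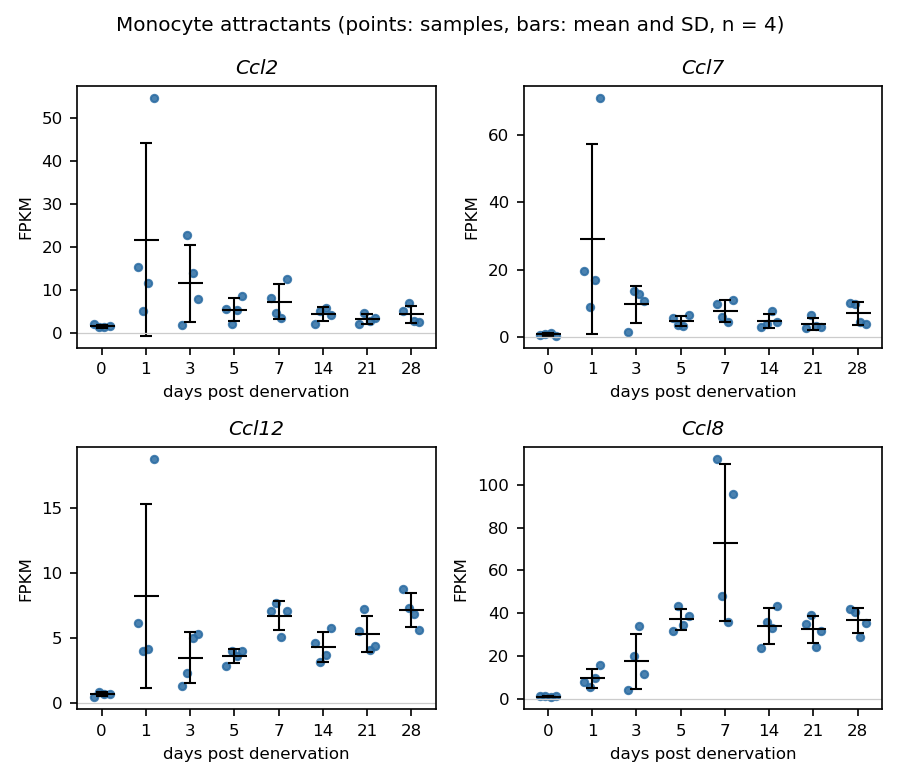
FPKM of Ccl2, Ccl7, Ccl12 and Ccl8 against days post denervation; points are single samples, horizontal marks are group means and vertical bars are 1 SD (n = 4). Ccl2 and Ccl7 have their highest mean at 1 d, with sample 4 far above the other 3, and Ccl8 has its highest mean at 7 d and stays above 20 FPKM in each sample after that.

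Ccr2, a receptor for Ccl2, Ccl7 and Ccl12 and a marker of inflammatory monocytes, rose as well. It lay at 2.36, 1.75, 2.54 and 2.34 FPKM at 0 d, at 5.3, 2.8, 3.62 and 8.46 FPKM at 1 d, and at 10, 8.8, 8.23 and 9.11 FPKM at 28 d. At 3 d, sample 1 was at 2.08 FPKM, inside the 0 d range, and the other samples were at 6.86 to 9.86 FPKM. At all other times the groups did not overlap. The difference was 1.02 ± 0.31 at 1 d (adjusted p = 0.0129) and 1.97 at 28 d (adjusted p = 5.9e-06). Without 1 d sample 4, the 1 d difference was 0.74 and was no longer called (adjusted p = 0.0850). Ccr2 took 8.42% of the summed receptor FPKM at 0 d and 24.0% at 28 d.

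Ccr1, a receptor for several CC chemokines on monocytes, macrophages and T cells, was higher at all 7 times. Ccr1 had 0.596, 0.378, 0.578 and 0.534 FPKM at 0 d, 3.9, 1.4, 2.21 and 9.47 FPKM at 1 d and 1.59, 6.79, 6.35 and 4.43 FPKM at 3 d, and no later sample was within the 0 d range. Its difference was 2.46 ± 0.42 at 1 d (adjusted p = 2.77e-05) and 2.81 at 3 d (adjusted p = 1.96e-06), and it was 1.98 at 28 d. From 14 d on, Ccr3, the eosinophil receptor, and Ccr7, which directs dendritic cells and T cells to lymph nodes, were called higher as well. Without 3 d sample 1, Ccr3 was already called at 3 d, at 1.56 (adjusted p = 0.0185). Ccr3 lost its 14 d and 28 d calls, and Ccr7 its 14 d call, with median-ratio scaling. The same calls of Ccr3 were lost on leaving out any of several single samples (28 d, 1.35, adjusted p = 0.0538, without 28 d sample 3). Without 0 d sample 2, Ccr7 was not called at 14 d (0.82, adjusted p = 0.107) or 21 d (0.83, adjusted p = 0.112), and its 21 d call was also lost without 21 d sample 1 (adjusted p = 0.0582) or sample 2 (0.78, adjusted p = 0.128).

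Among the other inflammatory CC ligands, Ccl6 and Ccl9, products of mouse macrophages and other myeloid cells, were the most abundant. Ccl6 went from 15.5, 7.73, 13 and 10.4 FPKM at 0 d to 75.7, 49.9, 79.1 and 143 FPKM at 1 d and 27.5, 196, 188 and 88.3 FPKM at 3 d. It was at 31.8, 32, 40 and 43.6 FPKM at 5 d and at 28.7 to 41.9 FPKM at 28 d. All later samples lay above the 0 d range, and the drop after 3 d was itself called, at -1.41 from 3 d to 5 d (adjusted p = 0.0108), but not without 3 d sample 2 (-1.08, adjusted p = 0.0606) or sample 3 (-1.10, adjusted p = 0.0549). Ccl9 had 3.92 to 4.91 FPKM at 0 d, 13.9 to 53.4 FPKM at 1 d, 7.14, 41.8, 41.8 and 22 FPKM at 3 d and 12 to 15.1 FPKM at 28 d. The differences were 2.83 ± 0.41 for Ccl6 and 2.45 ± 0.40 for Ccl9 at 1 d, and 1.54 and 1.55 at 28 d.

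Ccl3, Ccl4 and Ccl5, of the same group of inflammatory CC ligands, were low. Ccl3 and Ccl4 had means of 1.08 and 0.94 FPKM at 1 d, not called, with 0.17 to 2.69 and 0 to 3.12 FPKM over the samples. Ccl3 was called higher from 5 d on, by 1.63 to 2.24, with all samples at 2.69 FPKM or under, and its 5 d call was lost with median-ratio scaling. Its 1 d difference was 1.62, and without 3 d sample 1 it was called at 3 d, at 2.03 (adjusted p = 0.00993). Leaving out single samples also ended its 5 d call (1.47, adjusted p = 0.0959, without 5 d sample 1) and its 21 d call (1.65, adjusted p = 0.0665, without 0 d sample 4). Ccl4 was called at 7 d only, at 0.361 to 1.46 FPKM against 0 to 0.286 FPKM at 0 d, and not without 7 d sample 4 (1.95, adjusted p = 0.0544). Ccl5, a product of T cells, natural killer cells and macrophages, was at 0.135, 0.0698, 0.273 and 0.131 FPKM at 0 d and 0, 0.0677, 0.323 and 0.442 FPKM at 1 d. It stood at 1.13, 1.02, 1.77 and 1.82 FPKM at 14 d and at 2.85, 2.54, 1.39 and 1.31 FPKM at 28 d. There was no overlap with 0 d from 7 d on. The difference was 1.33 ± 0.46 at 7 d (adjusted p = 0.0182, lost with median-ratio scaling or without 7 d sample 4 or 0 d sample 2), 2.62 at 14 d (adjusted p = 2.46e-05) and 3.05 at 28 d (adjusted p = 2.68e-06).

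The neutrophil set had its highest levels at 1 d. Its ligands lie in a cluster on chromosome 5. Cxcl5 was at 0.0348, 0.036, 0 and 0.0338 FPKM at 0 d, which is 0 or 1 fragment, and at 11.2, 0.349, 2.27 and 9.88 FPKM at 1 d. By 28 d it was at 0.032, 0.128, 0.0325 and 0.153 FPKM. All 1 d samples lay above 0 d, over a range from 0.349 to 11.2 FPKM. The fitted difference was 4.72 ± 0.72 at 1 d (adjusted p = 5.51e-06), a size that depends on the 0.1 FPKM added. It was 1.72 or under and not called at any later time with all samples. Cxcl5 was at 0.0986 to 0.638, 0.128 to 0.622 and 0.189 to 0.452 FPKM at 5, 7 and 14 d, with every sample above 0 d. Without 3 d sample 1 it was called higher at 3 d, at 2.25 (adjusted p = 0.0125).

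Cxcl1 went from 0.0692, 0.429, 0.699 and 0.37 FPKM at 0 d to 2.18, 0.589, 0.993 and 3.13 FPKM at 1 d (difference 1.84 ± 0.49, adjusted p = 0.00434), and was at 0.127, 0.0327, 0.0306 and 0.218 FPKM at 5 d. The ranges of 0 d and 1 d overlapped, because 1 d sample 2 was under the highest 0 d sample. At 5 d, Cxcl1 was called lower, at -1.19 (adjusted p = 0.0492), a call that ended on leaving out any of 23 single samples (-0.89, adjusted p = 0.176, without 0 d sample 3). Cxcl2 was at 0.988, 0.0943, 0.06 and 4.16 FPKM at 1 d, so samples 1 and 4 were high and the other 2 lay within the 0 d range of 0 to 0.0972 FPKM. Its difference of 2.28 ± 0.65 (adjusted p = 0.00703) was not called without sample 4, at 1.35 (adjusted p = 0.0583). Cxcl3, too sparse to be tested, was at 1.05, 0, 0.177 and 3.69 FPKM at 1 d, high in the same samples, and at 0.0383 FPKM or under in every sample of any other time.

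Cxcr2, the receptor that neutrophils carry, also had its highest level at 1 d. It was at 0, 0.044, 0.0215 and 0.0413 FPKM at 0 d, 2.06, 0.235, 0.977 and 4.21 FPKM at 1 d, 0.0214, 0.471, 0.141 and 0.253 FPKM at 3 d, and 0.0749 to 0.137 FPKM at 28 d. All 1 d samples were above 0 d, and their order, with sample 4 highest, then 1, 3 and 2, was the order of Cxcl1 and Cxcl3 too. The difference was 3.43 ± 0.55 at 1 d (adjusted p = 1.18e-05) and 2.87 without sample 4. With all samples it was called at no later time, and without 3 d sample 1 it was called at 3 d, at 1.54 (adjusted p = 0.0261). From 1 d to 3 d, Cxcl1, Cxcl2, Cxcl5 and Cxcr2 were all called lower, with differences of -1.42 for Cxcl1, -3.00 for Cxcl5 and -2.29 for Cxcr2. Without 1 d sample 4, Cxcl1 (-1.06, adjusted p = 0.123) and Cxcl2 (-1.07, adjusted p = 0.133) were no longer called, nor was Cxcl1 without 3 d sample 1 (-1.07, adjusted p = 0.110). Cxcr1, the other neutrophil receptor of the family, was near 0 throughout, at 0.12 FPKM or under.

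The summed FPKM of 10 neutrophil markers was 1.3 to 2.28 at 0 d and 8.88 to 94.1 at 1 d, where sample 4 was the highest. It stayed high, with a mean of 27.8 at 3 d and 29.5 at 28 d, and S100a8 was its main part late: S100a8 had a mean of 9.12 FPKM at 1 d and 31.7 FPKM at 14 d, where the sum was 38.6 FPKM, while its partner S100a9 had 29.1 FPKM at 1 d and 1.24 FPKM at 14 d. Ly6g, a defining marker, was at a mean of 0.129 FPKM at 1 d and listed at 0 in the 0 d, 3 d, 14 d and 21 d groups, and Mpo, Camp, Ngp and Elane were near 0. Of the 6 markers tested, 5 were called higher at 1 d and 4 or 5 at later times, beside 11.3% of all genes at 1 d and 20.4% to 26.7% later. Their part in the course of Cxcr2 and its ligands was not tested.

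**Figure D4:**
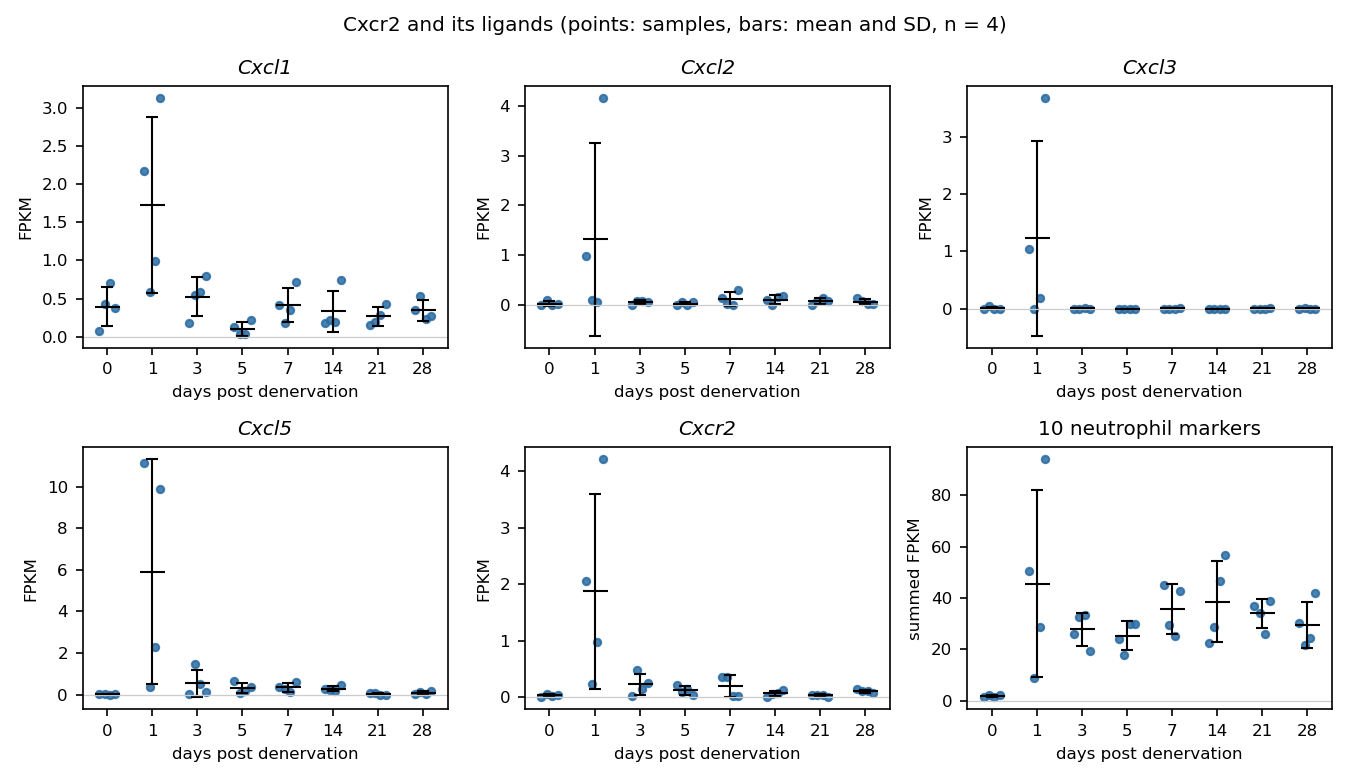
FPKM of Cxcl1, Cxcl2, Cxcl3, Cxcl5 and Cxcr2 and the summed FPKM of 10 neutrophil markers against days post denervation; points are single samples, horizontal marks are group means and vertical bars are 1 SD (n = 4). The 5 family genes have their highest means at 1 d, mostly in samples 1 and 4, and the marker sum stays above its 0 d level to 28 d.

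Since Cxcl1, Cxcl2 and Cxcl3 were high in the same samples of the same time, the 250 bases before their RefSeq starts are shown (GRCm38.p6), 5′ to 3′ on the gene's strand. Capitals mark the letters that match the NF-kappa B consensus, the element through which these genes are known to answer inflammatory signals in other cells. The windows are chr5:90890995-90891244, chr5:90903649-90903898 and chr5:90785851-90786100, all on the plus strand.
Cxcl1: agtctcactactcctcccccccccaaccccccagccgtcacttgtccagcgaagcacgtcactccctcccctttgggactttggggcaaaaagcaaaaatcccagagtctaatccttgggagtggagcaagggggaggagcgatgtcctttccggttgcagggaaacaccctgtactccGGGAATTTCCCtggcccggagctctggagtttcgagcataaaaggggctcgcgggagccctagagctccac
Cxcl2: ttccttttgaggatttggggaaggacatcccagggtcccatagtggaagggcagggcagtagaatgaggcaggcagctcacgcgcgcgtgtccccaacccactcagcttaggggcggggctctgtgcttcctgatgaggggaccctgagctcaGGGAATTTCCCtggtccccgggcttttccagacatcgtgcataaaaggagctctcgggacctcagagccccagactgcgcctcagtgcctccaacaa
Cxcl3: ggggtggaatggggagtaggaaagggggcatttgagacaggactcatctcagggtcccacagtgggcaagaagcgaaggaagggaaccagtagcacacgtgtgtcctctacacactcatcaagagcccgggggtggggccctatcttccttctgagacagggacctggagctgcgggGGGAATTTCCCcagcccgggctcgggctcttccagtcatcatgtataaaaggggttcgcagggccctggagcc
The match lies 71 to 62 bases before the start in Cxcl1, 97 to 88 bases before it in Cxcl2 and 73 to 64 bases before it in Cxcl3, and in all 3 it overlaps a match 1 base further on. Both strands were searched. A RefSeq window was found for 43 of the 57 members, and 9 of these held the consensus, beside 3.9% of the 32851 windows of all genes. A member was counted if any of its windows held the consensus, while the 3.9% is over single windows. These are unlike measures, so no excess in the family can be read from them. The other 6 were Ackr2, Ccl9, Ccl20, Ccr3, Ccr6 and Cxcl10. A match describes letters and does not show binding.

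Of the interferon-induced ligands of Cxcr3, Cxcl10 was above 0 d at 3 d and Cxcl9 under it. Cxcl10 was at 0.288, 0.238, 0.553 and 0.224 FPKM at 0 d and at 0.219, 0.433, 0.331 and 6.59 FPKM at 1 d, where sample 4 alone was high. At 5 d it was at 4.36, 3.62, 5.15 and 2.94 FPKM and at 28 d at 1.11, 0.74, 1.58 and 0.785 FPKM. All samples of 3 d, 5 d, 7 d and 28 d were above 0 d. The difference was 2.09 ± 0.58 at 3 d (adjusted p = 0.00388), 3.30 at 5 d (adjusted p = 2.39e-05) and 2.66 at 7 d (adjusted p = 0.000352). At 14 d and 21 d Cxcl10 was at 1.31 and 1.08, not called with all samples (adjusted p = 0.0642 and 0.142). Without 1 d sample 4 it was called at both (adjusted p = 0.00277 and 0.0138). The 28 d call, 1.44 (adjusted p = 0.0415), was lost with median-ratio scaling or on leaving out any of 5 single samples (1.24, adjusted p = 0.110, without 28 d sample 3).

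Cxcl9, which shares the receptor, was at 0.818, 1.27, 0.717 and 0.856 FPKM at 0 d, 1.66, 1.08, 2.16 and 9.32 FPKM at 1 d, and 0.195, 0.277, 0.367 and 0.255 FPKM at 3 d. It was thus high in 1 d sample 4, and every 3 d sample was under every 0 d and 1 d sample, while Cxcl10 was above 0 d at that time. The 3 d difference was -1.43 (adjusted p = 0.00321) against 0 d and -2.81 ± 0.39 (adjusted p = 1.27e-06) against 1 d. The rise at 1 d, 1.37 ± 0.39 (adjusted p = 0.00714), was not called without sample 4, at 0.75 (adjusted p = 0.0517). At 7, 21 and 28 d Cxcl9 was at 0.87, 0.76 and 0.75 above 0 d, not called with all samples (adjusted p = 0.0684, 0.122 and 0.117) and called without 1 d sample 4 (adjusted p = 0.00762, 0.0208 and 0.0203). A difference between Cxcl9 and Cxcl10 was not tested. Cxcr3, found on activated T cells and natural killer cells, was at 0 to 0.189 FPKM at 0 d and 0.297 to 0.963 FPKM at 28 d, and was called higher from 5 d on, at 1.42 ± 0.40 at 5 d (adjusted p = 0.00398) and 1.83 at 28 d. Without 3 d sample 1 it was also called at 3 d, at 1.08 (adjusted p = 0.0244), and its 21 d call was lost without 0 d sample 4, at 0.96 (adjusted p = 0.0631).

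The window of Cxcl10 is shown because it was the only member whose 250 bases held both the NF-kappa B consensus and the interferon element GAAANNGAAA, which 2.98% of all windows hold. It lies at chr5:92348890-92349139 on the minus strand (GRCm38.p6), and capitals mark both kinds of match.
Cxcl10: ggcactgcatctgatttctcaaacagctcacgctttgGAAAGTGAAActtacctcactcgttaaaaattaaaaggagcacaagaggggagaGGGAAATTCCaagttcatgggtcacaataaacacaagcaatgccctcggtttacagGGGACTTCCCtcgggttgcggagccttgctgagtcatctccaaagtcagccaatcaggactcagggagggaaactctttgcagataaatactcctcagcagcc
The NF-kappa B matches lie 159 to 150 and 103 to 94 bases before the start, and the interferon element 213 to 204 bases before it. The element was also found for Ccl19 and Cxcl14, and the window of Ccl8 held neither. Cxcl10 shares 133 exonic bases (5.91%) with Art3, and the sources used here do not say whether counting used strand.

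Ligands of lymphoid tissue and lymphatic vessels moved early. Cxcl13, the attractant of B cells, was at 1.35, 1.11, 0.627 and 0.876 FPKM at 0 d, 9.61, 10.1, 11 and 25 FPKM at 1 d, 12.1, 18.9, 9.77 and 6.8 FPKM at 3 d and 2.23, 2.43, 3 and 2.83 FPKM at 28 d. No later sample was within the 0 d range. The difference was 3.61 ± 0.32 at 1 d (adjusted p = 5.26e-10) and 1.36 at 28 d (adjusted p = 0.000818), and the drop from 1 d to 28 d was itself called, at -2.25 (adjusted p = 1.31e-06). Its receptor Cxcr5 was at 0.138 FPKM or under in all 32 samples and was not called with all samples. It was called higher at 14 d without 0 d sample 4 (0.63, adjusted p = 0.0458) or 14 d sample 1 (0.68, adjusted p = 0.0262). Summed B cell markers had means of 0.80, 0.305, 0.412, 1.08 and 0.85 FPKM at 0, 1, 3, 21 and 28 d, and were lowest at 1 d.

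Ccl21a and Ccl19, ligands of Ccr7, have near-identical copies in the mouse genome, so their counts are uncertain. Ccl21a was at 1.79, 0.154, 5.95 and 0.145 FPKM at 0 d and 9.15, 3.44, 7.56 and 7.31 FPKM at 1 d. The 0 d samples differed from each other by more than most later samples, and the groups overlapped at all 7 times. Ccl21a was called higher at each of them, at 2.84 ± 0.71 at 1 d (adjusted p = 0.00232) and 1.89 at 28 d (adjusted p = 0.0279), and median-ratio scaling ended the calls at 5 d, 7 d and 28 d. Without 0 d sample 2 or sample 4, the calls at 3, 5, 7, 21 and 28 d were lost (at 21 d, 1.72 and 1.71, adjusted p = 0.055 and 0.0555), which left those at 1 d and 14 d. Ccl19 was at 0.908 FPKM or under and was never called. Ccr7 went from 0.131, 0, 0.0662 and 0.127 FPKM at 0 d to 0.542, 0.451, 0.245 and 0.317 FPKM at 28 d (difference 1.47 ± 0.39, adjusted p = 0.00248). Summed lymphatic vessel markers were at 15.2 FPKM or under at 0 d, 21.5 to 27.3 FPKM at 1 d and 18.75 to 53.05 FPKM at 3 d, with 1 of its 5 markers called higher at 1 d and at 3 d (beside 11.3% and 20.4% of all genes), and their part in the Ccl21a values was not tested.

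Cxcl14, a ligand made by epithelia and connective tissue, was the most abundant member per length. It was at 55.4, 51.3, 61.3 and 59.8 FPKM at 0 d, 165, 106, 143 and 159 FPKM at 1 d, 193, 263, 227 and 250 FPKM at 3 d and 85.7, 81.2, 55.9 and 69.2 FPKM at 28 d. The groups did not overlap at 1 d or 3 d and overlapped again at 28 d. The difference was 1.31 ± 0.14 at 1 d (adjusted p = 2.04e-08), 2.02 at 3 d (adjusted p = 9.8e-13), then 1.20, 1.15, 0.87, 0.70 and 0.34, the last under 1.5-fold. The steps from 1 d to 3 d (0.71) and from 3 d to 5 d (-0.83) were both called, the first at 0.57 and under 1.5-fold without 1 d sample 2. Cxcl14 made up 33.4% of the summed ligand FPKM at 0 d, 49.3% at 3 d and 27.4% at 28 d. Its 14 d and 21 d calls were lost with median-ratio scaling.

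Cxcl12, which holds stem cells and leukocytes in tissues through Cxcr4, went down. It was at 24.5, 29.7, 29.1 and 27.3 FPKM at 0 d, 19, 17.2, 21 and 24.1 FPKM at 1 d, 10.7, 15.8, 16.7 and 14.5 FPKM at 3 d and 19.1, 18.9, 16 and 19.2 FPKM at 28 d. All samples of 3 d and 28 d were under all of 0 d. It was called lower at 3 d, at -0.95 ± 0.12 (adjusted p = 7.97e-08), at 21 d, at -0.70 (adjusted p = 1.44e-05), and at 28 d, at -0.59 (adjusted p = 0.000107). The 28 d difference was under 1.5-fold without 28 d sample 3, at -0.53 (adjusted p = 0.000864). At 1, 5, 7 and 14 d it was at -0.45, -0.38, -0.42 and -0.47, under 1.5-fold, and with median-ratio scaling it was called lower at those times as well. Its receptor Cxcr4 was at 2.37, 2.74, 2.17 and 2.51 FPKM at 0 d and 5.57, 5.66, 4.11 and 4.95 FPKM at 28 d, without overlap. Cxcr4 was called higher at 28 d, at 1.02 (adjusted p = 0.00307), and at 21 d, at 0.68 ± 0.28 (adjusted p = 0.0487), a call lost with median-ratio scaling or on leaving out any of 24 single samples.

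Ackr3, the atypical receptor that takes up Cxcl12, was the most abundant receptor per length at 0 d, at 17.5, 14.5, 16.2 and 16.4 FPKM. It was at 9.48, 9.15, 9.44 and 10.7 FPKM at 5 d, 10.6, 7.71, 5.62 and 9.13 FPKM at 7 d and 9.32, 9.28, 7.82 and 11.9 FPKM at 28 d. Every sample from 5 d on was under every 0 d sample. The difference was -0.73 ± 0.20 at 5 d (adjusted p = 0.00359), -0.99 at 7 d (adjusted p = 0.000147) and -0.76 at 28 d (adjusted p = 0.00239), and Ackr3 was called lower at all 5 times from 5 d. It made up 60.6 ± 1.78% of the summed receptor FPKM at 0 d and 25.3 ± 3.27% at 28 d. Summed endothelial markers were at 95.6 to 106 FPKM at 0 d and 62.4 to 76.3 FPKM at 28 d, with 1 of 6 called lower at 28 d, and all 6 with median-ratio scaling, beside 6.32% and 12.4% of all genes. Their part in the fall of Ackr3 and Cxcl12 was not tested.

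The other atypical receptors were lower in level. Ackr2, a scavenger of inflammatory CC chemokines, was called lower at 7 d, 21 d and 28 d, at -0.66, -0.76 and -0.67 (adjusted p = 0.0386, 0.0202 and 0.0375), from 0.967 to 1.61 FPKM at 0 d. Each of these calls was lost when single samples were left out, at 28 d with -0.36 (adjusted p = 0.238) without sample 3, at 7 d with -0.48 (adjusted p = 0.152) without sample 3 and at 21 d with -0.67 (adjusted p = 0.0641) without sample 4, and median-ratio scaling added calls at 5 d and 14 d. Ackr1, which carries chemokines across the venule wall and shares 361 exonic bases (25.7%) with Cadm3, was called higher at 1 d, 3 d and 5 d, at 0.64, 0.99 and 0.60 (adjusted p = 0.0314, 0.000672 and 0.0318). The 1 d and 5 d calls of Ackr1 were lost with median-ratio scaling, and both were also lost on leaving out single samples (0.61, adjusted p = 0.0714, without 1 d sample 4 and 0.49, adjusted p = 0.110, without 5 d sample 4). Ackr4, the scavenger of Ccl19 and Ccl21, was not called against 0 d with all samples. Median-ratio scaling added a call (lower at 5 d), as did leaving out 3 d sample 1 (higher at 21 d, 0.64, adjusted p = 0.0437). It was higher at 28 d than at 1 d by 0.90 (adjusted p = 0.012), though not called without 1 d sample 1 (0.72, adjusted p = 0.0622) or 28 d sample 4 (0.76, adjusted p = 0.0522).

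Ccl11 and Ccl24, attractants of eosinophils through Ccr3, gave 1 call between them. Ccl11, at 0 d the most abundant ligand per length after Cxcl14, with 51.1, 41.8, 49.8 and 52.4 FPKM, was at 24.6, 39.6, 42.1 and 26.2 FPKM at 3 d. Its 3 d call, -0.59 ± 0.17 (adjusted p = 0.00423), ended without 3 d sample 1, at -0.46 (adjusted p = 0.0262), which is under 1.5-fold, and it was also under 1.5-fold without 3 d sample 4 or 0 d sample 1, 3 or 4. Ccl24 was at 1.16 to 7.35 FPKM and was not called with all samples, but was called lower at 3 d without 3 d sample 3 (-0.98, adjusted p = 0.0144). With median-ratio scaling, Ccl24 was called lower at 3, 5 and 7 d, and Ccl11 was also called lower at 5, 7 and 28 d.

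Ccl27a, a ligand of Ccr10 best known from skin, had the largest fall against 0 d of the members called, on the scale of log2(FPKM + 0.1). That scale understates the changes of low genes, among them Cxcl1 and Cxcl9, so the ranking need not hold in FPKM. It was at 3.25, 3.33, 3.14 and 2.81 FPKM at 0 d, 2.07, 2.6, 1.8 and 1.78 FPKM at 1 d, 0.961, 0.805, 1.11 and 1.35 FPKM at 3 d and 2.05, 1.62, 2.22 and 2.02 FPKM at 5 d. The 3 d samples lay under all samples of 0 d, 1 d and 5 d. The difference from 0 d was -0.59 ± 0.13 at 1 d (adjusted p = 0.000829), -1.50 at 3 d (adjusted p = 1.3e-10), -0.64 at 5 d (adjusted p = 0.000188) and under 1.5-fold from 7 d on. With median-ratio scaling it was called lower at 7, 14, 21 and 28 d as well. The 1 d difference was under 1.5-fold without 1 d sample 3 or 4 or 0 d sample 1 or 2 (-0.53, adjusted p = 0.00537, without 1 d sample 4), and the 5 d difference was so without 5 d sample 2 (-0.56). It fell from 1 d to 3 d by 0.91 (adjusted p = 2.67e-06) and rose from 3 d to 5 d by 0.86 (adjusted p = 1.43e-05). Ccl28, another ligand of Ccr10, was at 0.147, 0.0830, 0.0541 and 0 FPKM at 0 d and 0.116, 0.0939, 0.448 and 0.463 FPKM at 1 d. Its 1 d call, 1.05 (adjusted p = 0.0401), was lost on leaving out any of 5 single samples (0.81, adjusted p = 0.161, without 1 d sample 4). Ccl25, a ligand of Ccr9, was also called lower at 3 d, at -0.65 ± 0.16 (adjusted p = 0.00106), and at no other time, with -0.53, under 1.5-fold, without 3 d sample 4.

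A further group was not called at 1 d and was called higher at later times, with Cx3cr1, Cxcl16 and Cxcr6 called by 5 d and Cx3cl1 from 14 d. Cx3cr1, the receptor of resident macrophages and patrolling monocytes, was at 0.504, 0.342, 0.32 and 0.168 FPKM at 0 d and 0.281, 0.404, 0.138 and 0.215 FPKM at 1 d. It was at 1.32, 0.897, 1.36 and 1.26 FPKM at 5 d and at 1.82, 1.72, 1.68 and 1.46 FPKM at 28 d. Its 1 d samples lay in the 0 d range or just under it, and from 5 d on all samples lay above. The difference was -0.27 at 1 d (adjusted p = 0.632), 0.84 at 3 d (adjusted p = 0.0488, lost with median-ratio scaling or on leaving out any of 26 single samples, yet 1.37 without 3 d sample 1, adjusted p = 5.88e-05), 1.64 at 5 d and 2.08 ± 0.34 at 28 d (adjusted p = 9.76e-06). Between 28 d and 1 d it was higher by 2.35 ± 0.34 (adjusted p = 2.02e-06), whereas Ccr1, high from 1 d on, was at -0.49 (adjusted p = 0.388).

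Cx3cl1, the membrane-anchored ligand of Cx3cr1, was at 1.04, 0.818, 0.95 and 1.04 FPKM at 0 d, 0.95, 0.777, 0.679 and 0.786 FPKM at 1 d, 2.43, 1.86, 2.47 and 1.98 FPKM at 21 d and 3.21, 3.09, 2.06 and 2.26 FPKM at 28 d. It was called from 14 d, where the 0.67 ± 0.20 (adjusted p = 0.00763) was lost with median-ratio scaling, and it was 1.36 at 28 d (adjusted p = 2.23e-06). Cxcl16, the other membrane-anchored ligand, was at 0.586 to 0.834 FPKM at 0 d and 1.85 to 2.31 FPKM at 28 d, and was called from 5 d (0.95 ± 0.22, adjusted p = 0.000736) to 28 d (1.39, adjusted p = 6.28e-06). Its step from 3 d to 5 d, 0.62, was not called without 3 d sample 1 (0.40, adjusted p = 0.219). It overlaps Zmynd15 on the other strand over 552 exonic bases (18.3%). Its receptor Cxcr6, found on T cells and natural killer cells, was at 0.202, 0.104, 0.305 and 0.228 FPKM at 0 d and 1.36, 1.7, 0.971 and 0.709 FPKM at 28 d (difference 2.03 ± 0.32, adjusted p = 5.33e-06), without overlap. Its 5 d and 7 d calls, 0.79 and 0.93, were lost with median-ratio scaling or without 0 d sample 2 (0.60 and 0.74, adjusted p = 0.160 and 0.0778). Both ligands and both receptors of these pairs were thus higher at 28 d than at 0 d and at 1 d.

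Ccl22 and Ccl17, ligands of Ccr4 made by dendritic cells and some macrophages, were also highest late. Ccl22 was at 0.0279, 0.346, 0 and 0.0271 FPKM at 0 d and 1.13, 1.31, 1.25 and 0.883 FPKM at 28 d, and was called from 14 d (2.37 ± 0.41, adjusted p = 2.14e-05) to 28 d (2.91, adjusted p = 9.96e-07). Without 0 d sample 2 it was also called at 1 d and 7 d (1.55 and 1.39, with adjusted p-values of 0.00254 and 0.00373). Ccl17 was called at 28 d, at 2.29 ± 0.55 (adjusted p = 0.000965), although its lowest 28 d sample, 0.777 FPKM, was just under the highest 0 d sample, 0.782 FPKM. Without 0 d sample 2 it was also called at 7, 14 and 21 d (1.37, 1.72 and 1.54, adjusted p = 0.0434, 0.0121 and 0.0265). Its fall from 3 d to 5 d, -1.54 (adjusted p = 0.0405), ended on leaving out any of 6 single samples. Ccr4 itself was near 0 throughout. Xcl1, a product of natural killer and T cells, was listed at 0 in all 20 samples up to 7 d and at 0.569, 0, 0.231 and 0 FPKM at 28 d. Xcl1 reached 0.1 FPKM in 6 samples, all from 14 d on. It thus entered the tests only through those groups, and its calls are no support for a rise. It was called higher at 14 d, a call lost on leaving out any of 26 single samples, and at 28 d, where it was not called without sample 1 (0.58, adjusted p = 0.184) or sample 3 (0.91, adjusted p = 0.0842). Xcr1, its receptor on cross-presenting dendritic cells, was called higher at 7 d, 21 d and 28 d, by 0.75 to 0.90, of which median-ratio scaling ended the 7 d and 21 d calls. The 21 d call of Xcr1 was also lost on leaving out any of 5 single samples (0.65, adjusted p = 0.0897, without 0 d sample 4).

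**Figure D5:**
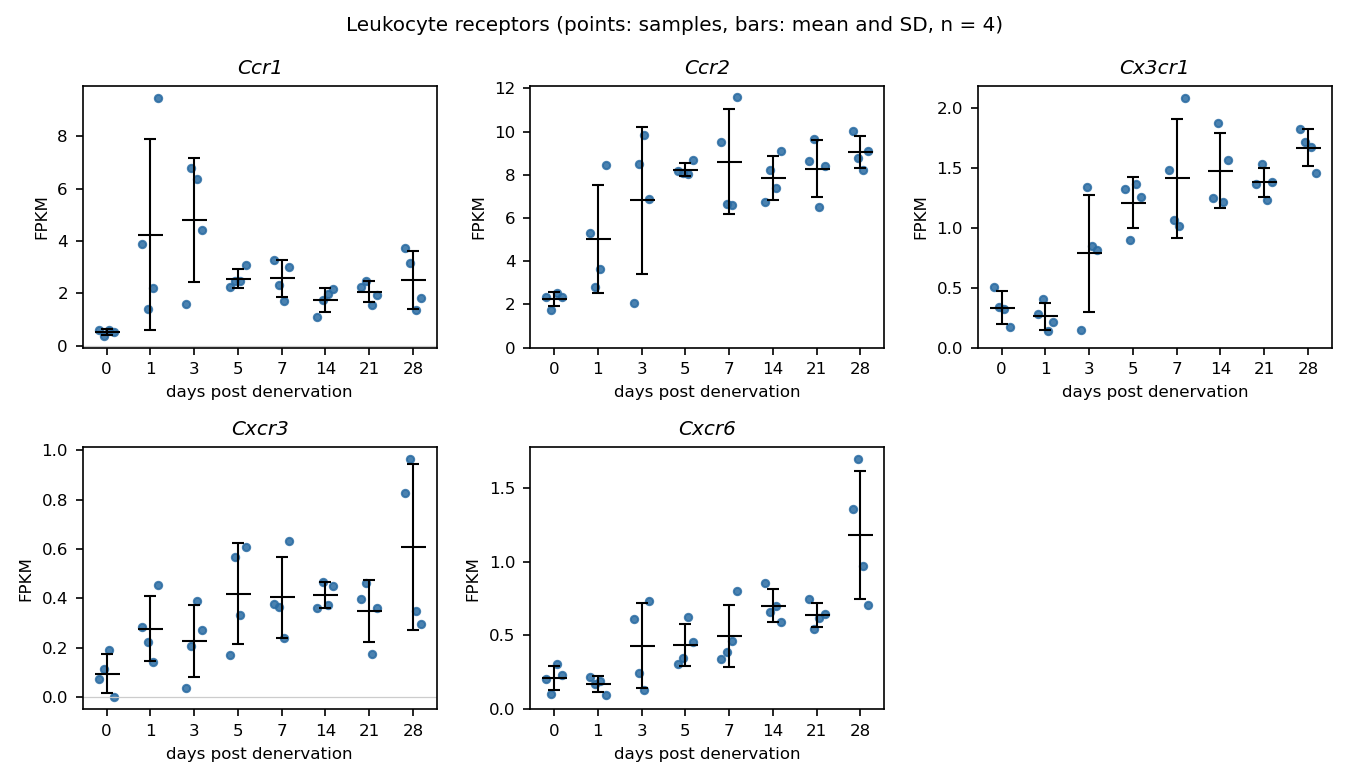
FPKM of the receptors Ccr1, Ccr2, Cx3cr1, Cxcr3 and Cxcr6 against days post denervation; points are single samples, horizontal marks are group means and vertical bars are 1 SD (n = 4). Ccr1 has its highest means at 1 d and 3 d, and Cx3cr1 and Cxcr6 are at their 0 d level at 1 d and highest at 28 d.

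More receptors were called late than early, as were more of all genes. Of 18 receptors, 5 were higher at 1 d and at 3 d, 7 at 5 d and 7 d, 8 at 14 d and 10 at 21 d and 28 d. Of 30 ligands, 14, 10, 12, 14, 14, 13 and 15 were higher at the 7 times in order, where all genes stood at 11.3%, 20.4%, 25.3%, 26.4%, 26.4%, 21.1% and 26.7%. The summed ligand FPKM had means of 170.5, 439.9, 505.3 and 265.4 at 0, 1, 3 and 28 d, and the summed receptor FPKM was 26.6 at 0 d and 37.9 at 28 d. Whether ligands and receptors differed in their share of calls was not tested.

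The 9 members that were not tested reached 0.1 FPKM in at most 3 samples each, namely Ccl1, Ccl20, Ccl26, Ccl27b, Ccr4, Ccr6, Ccr9, Cxcr1 and Cxcl3. Apart from Cxcl3, they were at 0.682 FPKM or under in every sample, and none was at 0 in all 32. Among the tested members, 11 were under 1 FPKM in every sample, namely Ackr4, Ccl19, Ccl28, Ccr7, Ccr8, Ccr10, Cxcl17, Cxcr3, Cxcr5, Xcl1 and Xcr1. At such levels a sample holds few fragments, and a difference could only be seen where it was large. The 7 members not called against 0 d with all samples were Ackr4, Ccl19, Ccl24, Ccr8, Ccr10, Cxcl17 and Cxcr5. Median-ratio scaling added calls for Ackr4 and Ccl24, and leaving out single samples added calls for Ackr4, Ccl19, Ccl24 and Cxcr5.

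Between neighbouring times, calls were few after 5 d. From 1 d to 3 d, 2 of 48 members were called higher and 10 lower, beside 10.4% and 7.79% of all genes. This split turned on the 2 samples that stood apart: without both, 11 were called higher and 4 lower, beside 15.7% and 6.47% of all genes. Cxcl9 and the neutrophil genes fell, and Cx3cr1 and Cxcl14 rose, in the fit with all samples. Without 1 d sample 4, Cxcl9, Cxcl5 and Cxcr2 stayed called lower, while Cxcl1, Cxcl2, Ccl7, Ccl12 and Ccl22 did not. Cxcl10, not called with all samples (1.05), was then called higher, at 2.05 (adjusted p = 9.92e-05). The rise of Cx3cr1 was not called without 3 d sample 2 (0.78, adjusted p = 0.0888) or 1 d sample 3 (0.92, adjusted p = 0.0603). Without 3 d sample 1, Ccr2 (0.83), Ccl6 (0.87), Ccl8 (1.16) and Cx3cl1 (0.77) were also called higher at 3 d than at 1 d. From 3 d to 5 d, 4 were higher and 4 lower, beside 8.98% and 3% of all genes, and 2 and 7 with median-ratio scaling, beside 5.83% and 4.58%.

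No member was called from 5 d to 7 d, 7 d to 14 d, 14 d to 21 d or 21 d to 28 d by limma, where all genes were called at 0.834%, 1%, 0.612% and 0.213%. At an unadjusted p under 0.05 there were 7, 8, 2 and 6 members in these steps, and limma-voom on the recovered fragments called 0 in each, beside 0.966%, 1.07%, 0.716% and 0.277% of all genes. The late rises of Ccl5, Ccl22, Cx3cl1 and Cxcr6 were thus called against 0 d and 1 d, and between no neighbouring times with all samples. The step of Ccl22 from 7 d to 14 d, 1.46 (adjusted p = 0.061), was called without 0 d sample 2 (adjusted p = 0.0229) or 14 d sample 1 (1.89, adjusted p = 0.0102). Without 1 d sample 4, Cxcl9 was called higher from 5 d to 7 d (1.31, adjusted p = 0.00692) and Cxcl10 lower from 7 d to 14 d (-1.35, adjusted p = 0.0384).

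The machinery behind the receptors was read from a list of 37 genes for G proteins, arrestins, kinases, integrins and small GTPases. Of these, 12 were called higher and 1 lower at 1 d, 17 and 0 at 5 d, 19 and 0 at 7 d, and 18 and 1 at 28 d, where 11.3%, 25.3%, 26.4% and 26.7% of all genes were called higher and 5.11%, 6.12%, 6.52% and 6.32% lower. After median-ratio scaling the counts were 9 and 1 at 1 d and 13 and 5 at 28 d, beside 7.41% and 13.2% of all genes called higher and 9.01% and 12.4% called lower. The median difference of the list was 0.33 to 0.72 over the times, where that of all genes was 0.10 to 0.36. Its 4 genes of highest mean level were Cdc42 and Rac1, which steer the leading edge of a moving cell, and the G protein subunits Gnai2 and Gnb1. Among 11 chemokine-like genes outside the family, Mif, a cytokine that can bind Cxcr2 and Cxcr4, rose from a mean of 56.1 FPKM at 0 d to 129 FPKM at 7 d (1.20 ± 0.08, adjusted p = 3.52e-13), and Pf4, the platelet and macrophage chemokine Cxcl4, was called at 3 d and 5 d, at 0.93 and 0.76.

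Markers of several cell types moved with the family. All 12 macrophage markers were called at some time, beside 57.5% of all genes. Of them, 6 were called higher at 1 d, 11 at 3 d and 12 at 28 d, beside 11.3%, 20.4% and 26.7% of all genes, and their summed FPKM had a range of 175 to 256 at 0 d, 282 to 440 at 1 d, 332.5 to 1176 at 3 d, 492 to 1433 at 7 d and 577 to 673 at 28 d. In 3 d sample 1, which was low in 37 members, that sum was 332.5, and it was 613 to 1176 in the other 3 d samples. Summed dendritic cell markers went from 5.05 to 9.90 FPKM between 0 d and 28 d, T cell markers from 0.736 to 2.51 FPKM and natural killer markers from 0.43 to 2.21 FPKM. Summed eosinophil and mast cell markers were at 34.1 and 33.6 FPKM, and those of fibro-adipogenic cells at 409.5 to 456 FPKM over the times. Summed myofibre markers were at 39750 to 43090 FPKM at 0 d and 34620 to 39400 FPKM at 1 d. All 7 of them were called at some time, beside 57.5% of all genes. Summed Schwann cell markers were 76.6 to 169.5 FPKM at 0 d, 19.6 to 50.8 FPKM in 3 of the 1 d samples, 110 FPKM in sample 4, which is within the 0 d range, and 12.9 to 62.3 FPKM at later times. Itgam, a macrophage marker here, is also on the list of receptor machinery. The part of these cell types in the family's course was not tested.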

How the data were processed

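RNA-seq of 32 GAS samples was deposited as 1 table of FPKM values, which the authors computed per gene, with columns named by group; the sources used here do not state the counter, its annotation or its use of strand. The submitters' processing notes name HISAT2 2.1.0, CASAVA, DESeq2 and the build GRCm38. Columns were tied to groups by name, and only the study's text says that samples were separate mice, so p-values measure the spread between these samples. Whole fragments were recovered from the FPKM steps (99.3% of values under 200 fragments lay within 0.02 of a whole number), and totals of 14199902 to 17561584 limit precision for members at few fragments. The members and the gene lists were chosen with earlier results of these data known.

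Members were found by symbol with GENCODE M21 (33356 of 33397 gene IDs matched). Genes at 0.1 FPKM or more in at least 4 samples were fitted as log2(FPKM + 0.1) with limma 3.58.1 in R 4.3.3 (trend, all 8 groups in 1 fit), a scale that understates the changes of low genes. Calls needed a Benjamini-Hochberg adjusted p under 0.05 over all genes and 1.5-fold. The genes described in full were 7 sets of ligands with their receptors, the members with the largest called rises and falls and those of highest mean FPKM; others appear by role, and up to 4 genes of a list by mean level, with Ly6g, Mpo, Camp, Ngp and Elane named after their values were seen. The comparison of 28 d with 1 d was also chosen after the values were seen. Other pseudocounts, filters, scalings, fits and samples left out were tried, and the scripts were tested on simulated data. Promoter windows came from RefSeq (GRCm38.p6). Python 3.11.15, pandas 2.3.3 and scipy 1.17.1 were used. Within groups, sample correlations were at least 0.942 and no pair agreed within sampling noise. Values of 1 tested member are not reported here, and it is included in the counts and sums.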

Additional observations from a re-analysis of the deposited data

Results flagged for a closer look

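Among the 224 sets of 4 samples examined for the named members, 13 held a sample whose gap to its nearest neighbour, as a share of the group's range, passed Dixon's 95% critical value, and chance alone would give about 1 in 20, or 11.2. Of these, 7 were the same sample, 1 d sample 4, and it was the highest each time. It had 18.7 FPKM of Ccl12 (3.99 to 6.16 FPKM in the other 3), 4.86 FPKM of Cxcr4 (3.09 to 3.34), 15.9 FPKM of Ackr3 (11.5 to 11.7), 9.32 FPKM of Cxcl9 (1.08 to 2.16), 6.59 FPKM of Cxcl10 (0.219 to 0.433), 25 FPKM of Cxcl13 (9.61 to 11) and 45.6 FPKM of Ccl11 (41.7 to 41.9). Schwann cell markers summed to 110 FPKM and neutrophil markers to 94.1 FPKM in this sample, each the highest at 1 d (Schwann cell markers were at 76.6 to 169.5 FPKM at 0 d). Macrophage (440 FPKM, 282 to 303 FPKM in the others) and endothelial markers (131 FPKM, 103 to 110 FPKM) were also highest there. Myofibre markers were lowest there (34620 FPKM, 37240 to 39400 FPKM in the others). Dendritic, B and satellite cell markers were not highest there. The part of these cell types was not tested.

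The other 6 lay in other samples. Ccl7 was at 6.69 FPKM in 21 d sample 2 (2.8 to 3.29 FPKM in the others), Cxcl12 was at 16 FPKM in 28 d sample 3 (18.9 to 19.2 FPKM), and Cxcl1 was at 0.738 FPKM in 14 d sample 4 (0.182 to 0.215 FPKM). In the remaining 3 the value was 0 and the others held 1 or 2 fragments: Cxcr5 in 7 d sample 4 (0.0344 to 0.0358 FPKM), Cxcl5 in 0 d sample 3 (0.0338 to 0.036 FPKM) and Cxcr2 in 21 d sample 4 (0.0377 to 0.0404 FPKM).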

How the results depend on the processing

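None of the 117 calls of named members reversed under any alternative. A pseudocount of 1 lost 28 of them, 0.5 lost 14, median-ratio scaling 13, quantile scaling 13, limma-voom 11 and a 2-fold threshold 19; leaving out 1 sample at a time lost 21. In the counts that follow, the share of all genes under the same setting is not given, so a moved count cannot be read as particular to the family. The count of members called at 5 d against 0 d was 13 with a pseudocount of 1. From 1 d to 3 d it was 3 in a fit of those groups alone. From 3 d to 5 d it was 4 with a pseudocount of 1, 5 with 0.5, 4 at 2-fold, 5 in a fit of those groups alone and 13 without both samples that stood apart. From 5 d to 7 d it was 2 in a fit of those groups alone and 2 without both samples, and from 7 d to 14 d it was 1 with a pseudocount of 1, 2 with 0.5 and 1 without both. The number of members near 0 was 20 with a threshold of 0.5 FPKM and 3 when 1 sample was enough. Genes called at any time numbered, with a pseudocount of 1, 1 for T cell markers, 0 for B cells, 1 for natural killer cells, 3 for dendritic cells and 1 for eosinophils and mast cells, and with median-ratio scaling 2 for B cells and 2 for eosinophils and mast cells. The causes were not tested.

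With 1 sample left out at a time, calls against 0 d ranged over 14 to 23 at 1 d (lowest without 1 d sample 4), 17 to 25 at 3 d, 18 to 23 at 5 d, 19 to 26 at 7 d, 20 to 28 at 14 d, 21 to 28 at 21 d and 24 to 29 at 28 d. They ranged over 8 to 14 from 1 d to 3 d, 6 to 11 from 3 d to 5 d, 0 to 1 from 5 d to 7 d and from 7 d to 14 d, and 0 to 0 in the 2 later steps. Between 28 d and 1 d they ranged over 19 to 23, and 9 to 10 members were near 0. Shares of all genes with the same samples left out are not given, so these ranges describe the members only. No paired analysis was possible because the columns are tied to groups only and different mice were taken at each time. Members at a few fragments a sample limit what could be called.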
